A study of Mus musculus with 30 samples.

Results

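A group of 9 genes that act on phosphate, pyrophosphate and the start of mineral deposition was followed in the healing fracture callus of mice, and they were chosen by name: Alpl, Phospho1, Smpd3, Phex, Fam20c, Slc20a1, Slc20a2, Enpp1 and Ank. All 9 were found by their Ensembl identifier among the 43629 genes of the deposited count table. For the comparison of promoters with inhibitors of mineral, 7 were taken as promoters and 2, Enpp1 and Ank, as inhibitors. RNA-seq was performed on 30 calli of adult male C57BL/6J mice, with 1 callus per library and 3 mice per diet and day. Lean mice received a low-fat diet with calli taken at d3, d5, d7 or d10, and diet-induced obese (DIO) mice received a high-fat diet, with calli taken at the same days and also at d14 or d21. Every mouse had an open osteotomy of the right tibia that was held by an intramedullary nail, and soft tissue was removed from the callus before RNA extraction. No unfractured bone was among the samples. Later lean calli (d14, d21) were not analysed here. Mice were numbered 1 to 3 within a group in the order of their deposition, and the number is used here only to name a mouse.

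Bone and calcified cartilage harden when phosphate and calcium form hydroxyapatite on a collagen matrix, and pyrophosphate blocks this step. Enpp1 encodes the ectoenzyme that makes pyrophosphate from nucleotides, and Ank encodes the membrane protein through which pyrophosphate and its nucleotide source leave the cell. Alpl encodes tissue-nonspecific alkaline phosphatase, which splits pyrophosphate and frees phosphate. Phospho1 frees phosphate from phosphocholine inside matrix vesicles, and Smpd3 encodes neutral sphingomyelinase 2, which yields ceramide and phosphocholine from sphingomyelin. Phex is an endopeptidase of osteoblasts and osteocytes that cleaves mineral-binding peptides, Fam20c is the kinase that phosphorylates secreted matrix proteins, and Slc20a1 and Slc20a2 (PiT1 and PiT2) are sodium-phosphate cotransporters.

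Total counts ran from 13247122 to 26365620 per library, and levels are given as CPM, a gene's counts relative to the total of its library after scaling with TMM factors. All 9 genes had at least 3 counts in every library. The counts of Phospho1 ran from 12 to 210 per library, and 89.6% of its annotated exon bases also belong to Zfp652 on the same strand and 84.2% to Abi3 on the opposite strand, so its counts are uncertain. Of the exon bases of Smpd3, 4.72% are shared with Prmt7 on the opposite strand, and 8.10% of those of Slc20a1 with 9830144P21Rik on the opposite strand. Parts of the transcripts of Enpp1, over 100 bases long, are at least 95% identical to other transcripts. In these bulk samples fewer cells of a type and less RNA per cell cannot be told apart. All 7 osteoblast markers, Runx2, Sp7, Col1a1, Col1a2, Bglap, Bglap2 and Ibsp, had at least 3 counts in every library, and their summed level ran from 27206 to 104198 CPM. Lean d10 mouse 1 stood apart from its group: its 6 chondrocyte markers summed to 64085 CPM against 10328 and 12851 in the other lean d10 mice, and its 5 skeletal muscle markers to 860.5 CPM against 8043 and 12113.

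RefSeq promoters (GRCm38.p6), each with 250 bases before and 50 bases after the start of the gene, were at hand for 7 of the 9 genes. They are shown for 5 of the 6 genes that rose from d3 to d10 in lean callus, and Smpd3 is named only. Capitals mark matches on either strand to TGTGGT (the RUNX core), GGGCGG (the GC box), TATAAA (the TATA box) or TAATTA (a homeodomain core), and matches that share bases run together.
Alpl, chr4:137796335-137796634, minus strand: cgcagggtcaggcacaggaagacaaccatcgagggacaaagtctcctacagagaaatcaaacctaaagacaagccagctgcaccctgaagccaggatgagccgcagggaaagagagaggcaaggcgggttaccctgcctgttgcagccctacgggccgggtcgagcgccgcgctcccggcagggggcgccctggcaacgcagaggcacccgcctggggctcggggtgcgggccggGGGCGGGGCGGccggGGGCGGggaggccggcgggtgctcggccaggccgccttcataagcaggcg
Fam20c, chr5:138754831-138755130, plus strand: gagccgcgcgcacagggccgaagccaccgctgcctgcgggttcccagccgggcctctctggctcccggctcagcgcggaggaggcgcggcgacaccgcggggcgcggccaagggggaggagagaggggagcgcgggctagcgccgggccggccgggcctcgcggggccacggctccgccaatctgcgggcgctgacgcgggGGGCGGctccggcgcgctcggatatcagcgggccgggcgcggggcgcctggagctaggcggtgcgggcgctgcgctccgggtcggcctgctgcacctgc
Enpp1, chr10:24712110-24712409, minus strand: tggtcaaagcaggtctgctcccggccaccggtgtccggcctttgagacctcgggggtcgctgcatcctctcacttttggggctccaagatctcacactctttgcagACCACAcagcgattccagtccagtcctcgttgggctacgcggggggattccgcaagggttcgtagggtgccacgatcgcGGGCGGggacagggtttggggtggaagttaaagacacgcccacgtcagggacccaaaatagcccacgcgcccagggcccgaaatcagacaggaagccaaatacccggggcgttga
Ank, chr15:27466427-27466726, plus strand: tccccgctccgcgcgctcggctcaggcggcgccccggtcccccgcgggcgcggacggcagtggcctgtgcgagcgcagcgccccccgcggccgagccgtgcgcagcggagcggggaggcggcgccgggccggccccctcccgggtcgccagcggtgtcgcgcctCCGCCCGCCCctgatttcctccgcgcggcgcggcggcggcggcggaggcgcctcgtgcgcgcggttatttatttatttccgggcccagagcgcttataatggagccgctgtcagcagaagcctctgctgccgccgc
Phex, chrX:157415237-157415536, minus strand: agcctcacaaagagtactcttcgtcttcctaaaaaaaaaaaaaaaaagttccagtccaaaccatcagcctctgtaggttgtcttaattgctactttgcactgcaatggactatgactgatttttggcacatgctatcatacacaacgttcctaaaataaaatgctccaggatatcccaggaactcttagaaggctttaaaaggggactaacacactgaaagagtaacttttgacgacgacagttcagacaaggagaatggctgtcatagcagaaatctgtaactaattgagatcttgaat
The GC box was found 3 times for Alpl, 2 times for Ank and 1 time each for Fam20c and Enpp1, and 35.7% of all 32851 promoters held it. Enpp1 also held 1 match to TGTGGT, which 16.8% of all promoters held. None of the 4 motifs was in the window of Phex. TATAAA was in 13.6% of all promoters, and the second Alpl promoter, at chr4:137766426-137766725, held 1 match to it. The promoter of Slc20a1 at chr2:129198523-129198822, not shown, held 1 match to TATAAA, 1 to TGTGGT and 2 to the GC box. The other Slc20a1 promoter held 1 GC box and that of Phospho1 held 3, both not shown. TAATTA was in 5.29% of all promoters and in none of the 9 promoters of these genes. The counts are summed per gene, so the starts of Alpl were not told apart, and these letters do not show that a factor was bound.

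Set against the length of the annotated exons, Alpl had the highest level of the 9, with a median over the 30 libraries of 294 CPM per kilobase and a range of 59.2 to 895. Smpd3 followed with a median of 64.9 CPM per kilobase and Ank with 46.6. Slc20a1 had 17.9, Phex 15.8, Fam20c 13.5, Slc20a2 11.1 and Enpp1 8.93 CPM per kilobase. Phospho1 was lowest, with 2.19 CPM per kilobase, and with 21.0 when its counts were set against the exon bases that it does not share with Zfp652. Pyrophosphate export by Ank thus had more transcript per length than pyrophosphate synthesis by Enpp1 in the median library. The genes varied by different amounts over the 10 groups of diet and day. The highest group mean was 21.4 times the lowest for Phex (DIO d14 over DIO d3), 9.11 times for Fam20c (lean d10 over DIO d3), 7.81 times for Smpd3 and 6.35 times for Alpl (both lean d10 over DIO d21). It was 4.27 times for Phospho1, 3.19 times for Slc20a2, 2.57 times for Ank, 2.50 times for Enpp1 and 2.04 times for Slc20a1. Without lean d10 mouse 1 the ratio was 5.11 for Fam20c, 4.71 for Alpl and 5.25 for Smpd3, for which it was then DIO d7 over DIO d21. It was 2.18 for Ank and 1.90 for Enpp1, and the other ratios did not change.

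**Figure D1:**
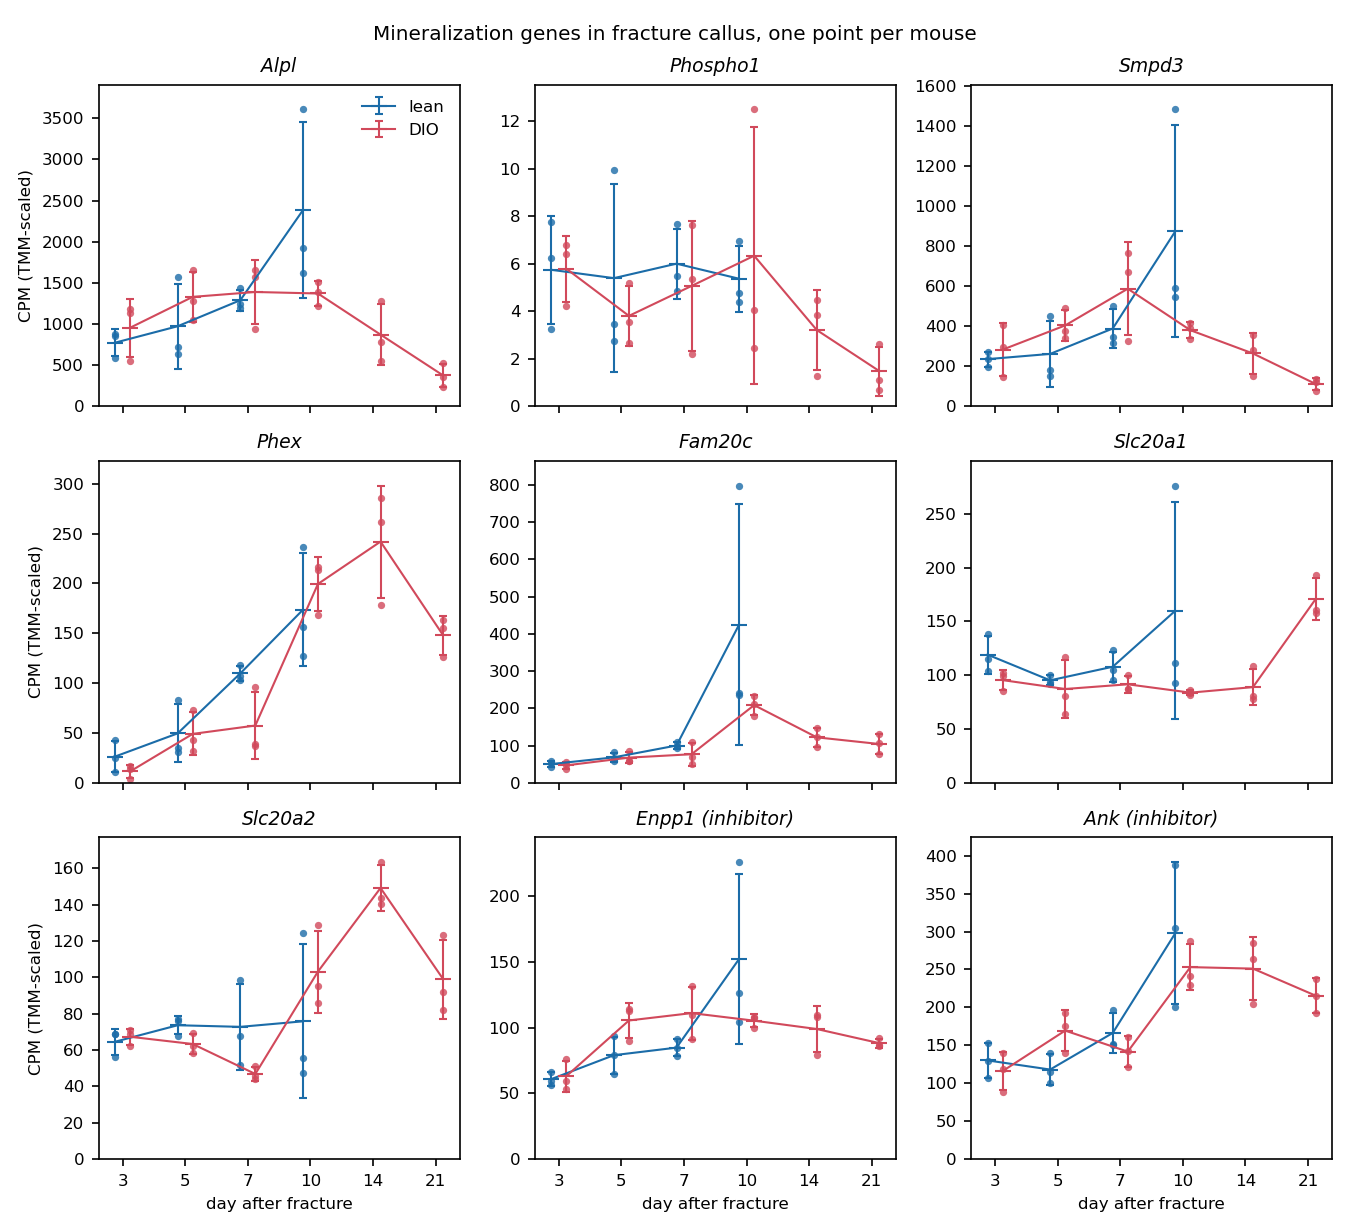
TMM-scaled CPM of the 9 genes (y axis, a linear scale from 0 that differs between panels) by day after fracture (x axis, days evenly spaced), with 1 point per mouse and the mean ± SD of 3 mice for lean and DIO calli. Lean d10 mouse 1 is the highest point for Alpl, Smpd3, Fam20c, Slc20a1, Enpp1 and Ank, and the DIO means of Alpl and Smpd3 are lowest on d21.

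Alpl (ENSMUSG00000028766, chr4:137741733-137796384, minus strand, GRCm38) was present at 852, 585 and 883 CPM in the lean mice of d3 and at 631, 719 and 1569 CPM on d5. It stood at 1192, 1243 and 1431 CPM on d7 and at 3608, 1621 and 1917 CPM on d10. Every lean d10 mouse was above every lean mouse of d3, d5 and d7. Alpl rose 3.15-fold from d3 to d10 in the lean callus (log2 fold change 1.66, SE 0.38, edgeR adjusted p = 0.00762). Without lean d10 mouse 1 the log2 fold change was 1.23 (edgeR adjusted p = 0.0241).

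In the DIO callus Alpl was measured at 551, 1137 and 1177 CPM on d3, 1659, 1050.3 and 1279.6 on d5, 1661, 939 and 1567 on d7 and 1387, 1509.9 and 1215 on d10. The DIO mice of d10 were all above those of d3, and the difference did not pass the test (log2 fold change 0.52, SE 0.35, edgeR adjusted p = 0.304). On d14 the values were 788, 550.0 and 1276 CPM, and on d21 they were 239, 526 and 361 CPM. The DIO d21 mice were below every other mouse of the series. From d14 to d21 Alpl fell (log2 fold change -1.22, SE 0.35, edgeR adjusted p = 0.0241), and from d10 to d21 it fell as well (log2 fold change -1.87, SE 0.36, edgeR adjusted p = 0.000612). The d14 to d21 fall lost its call without DIO d14 mouse 3 (log2 fold change -0.83, edgeR adjusted p = 0.136), without DIO d21 mouse 1 (-0.99, edgeR adjusted p = 0.117) or without DIO d21 mouse 3 (-1.20, edgeR adjusted p = 0.0614).

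Phospho1 (ENSMUSG00000050860, chr11:95824499-95832140, plus strand), the other phosphatase, was far lower. Group means of the lean mice lay between 5.37 and 6.01 CPM, with no step between days that passed. The DIO mice had 12.5, 2.45 and 4.06 CPM on d10, 3.85, 1.30 and 4.49 on d14 and 0.691, 1.12 and 2.64 on d21. The days overlapped, and Phospho1 was lower on d21 than on d10 (log2 fold change -2.08, SE 0.63, edgeR adjusted p = 0.0135). This call was lost without DIO d10 mouse 1 (log2 fold change -1.12, edgeR adjusted p = 0.148) or DIO d21 mouse 1 (-1.77, edgeR adjusted p = 0.057).

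Smpd3 (ENSMUSG00000031906, chr8:106252548-106337988, minus strand) moved with Alpl. The lean mice had 239, 198 and 271 CPM on d3, 183, 152 and 451 on d5, 316, 349 and 502 on d7 and 1484, 594 and 547 on d10. Lean d5 mouse 3 was above every lean mouse of d3, as it was for Alpl, and the lean d10 mice were above all other lean mice. Smpd3 rose from d3 to d10 in the lean callus (log2 fold change 1.93, SE 0.46, edgeR adjusted p = 0.00918). The log2 fold change was 1.31 without lean d10 mouse 1, whose value was over 2 times that of the others (edgeR adjusted p = 0.0305).

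The DIO mice had 145, 407 and 298 CPM of Smpd3 on d3, 494, 344 and 375 on d5, 767, 326 and 670.5 on d7 and 336, 392 and 414 on d10. Their highest mean was on d7, and the d10 mice overlapped those of d3 (log2 fold change 0.43, SE 0.37, edgeR adjusted p = 0.432). On d14 they had 283, 153 and 356 CPM and on d21 77.2, 136 and 123 CPM, so that all d21 mice were below every other mouse of the series. Smpd3 fell from d14 to d21 (log2 fold change -1.24, SE 0.37, edgeR adjusted p = 0.0275) and from d10 to d21 (log2 fold change -1.77, SE 0.38, edgeR adjusted p = 0.00134). The first of these was lost, at an edgeR adjusted p of 0.0516 to 0.126, without DIO d14 mouse 1 or 3 or DIO d21 mouse 1 or 3, with log2 fold changes of -1.31 to -0.96.

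Phex (ENSMUSG00000057457, chrX:157162075-157415312, minus strand) had the widest range of the 9 genes and was low at the start. The lean mice had 11, 25.1 and 42.7 CPM on d3, 30.9, 34.7 and 83.0 on d5, 103, 107 and 118 on d7 and 127, 156 and 237 on d10. From d3 to d10 Phex rose 6.75-fold (log2 fold change 2.75, SE 0.48, edgeR adjusted p = 0.00199), and no step between neighbouring lean days passed. In the DIO callus the values were 4.09, 16.5 and 13.4 CPM on d3, 73.0, 42.6 and 31.4 on d5, 95.7, 39.1 and 37.3 on d7 and 216, 169 and 214 on d10. Phex rose 17.5-fold from d3 to d10 in DIO mice (log2 fold change 4.13, SE 0.47, edgeR adjusted p = 1.56e-05), first between d3 and d5 (log2 fold change 2.11, SE 0.43, edgeR adjusted p = 0.0164) and again between d7 and d10 (log2 fold change 1.80, SE 0.42, edgeR adjusted p = 0.00799). The first step lost its call without DIO d3 mouse 1 (log2 fold change 1.71, edgeR adjusted p = 0.0636) or DIO d5 mouse 1 (1.70, edgeR adjusted p = 0.0798). On d14 the DIO mice had 286, 179 and 261 CPM and on d21 163, 126 and 155 CPM. The d21 mice were below those of d10, but this difference did not pass (log2 fold change -0.43, SE 0.41, edgeR adjusted p = 0.408).

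Fam20c (ENSMUSG00000025854, chr5:138754514-138810077, plus strand) was at 57.4, 41.2 and 51.7 CPM in lean mice on d3, 62.5, 59.1 and 82.9 on d5, 109, 92.9 and 97.8 on d7 and 798, 235 and 242 on d10. Each day lay above the day before without overlap, and the step from d7 to d10 was the one that passed (log2 fold change 2.10, SE 0.40, edgeR adjusted p = 0.0296). Leaving out any 1 of the lean d7 mice ended that call, with log2 fold changes of 2.04 to 2.18 and edgeR adjusted p of 0.0723 to 0.114. From d3 to d10 Fam20c rose 8.70-fold (log2 fold change 3.12, SE 0.42, edgeR adjusted p = 0.00059). Without lean d10 mouse 1 the log2 fold change was 2.29 (edgeR adjusted p = 3.79e-05).

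The DIO mice had 55.3, 47.6 and 37.1 CPM of Fam20c on d3, 85.5, 57.3 and 59.5 on d5, 110.3, 49.6 and 69.7 on d7 and 234, 211 and 180.4 on d10. The d10 mice were above all earlier DIO mice, and Fam20c rose from d7 to d10 (log2 fold change 1.44, SE 0.27, edgeR adjusted p = 0.00155) and from d3 to d10 (log2 fold change 2.16, SE 0.27, edgeR adjusted p = 4.86e-05). On d14 the values were 122, 96.8 and 147 CPM and on d21 105, 130.1 and 76.4 CPM, both below d10 without overlap. The fall from d10 to d21 passed (log2 fold change -1.01, SE 0.27, edgeR adjusted p = 0.00592).

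The transporters followed other courses. Slc20a1 (ENSMUSG00000027397, chr2:129198764-129211616, plus strand) ran from 91.5 to 138 CPM in the lean mice of d3 to d7, and on d10 the lean mice had 276, 92.7 and 111 CPM. The difference between lean d10 and d3 did not pass (edgeR adjusted p = 0.299), and of the d10 mice mouse 1 alone was above the earlier lean mice. In DIO mice Slc20a1 was measured at 81.1, 83.7 and 86.4 CPM on d10, 80.2, 108 and 78.2 on d14 and 193, 158 and 161 on d21. All d21 mice were above all earlier DIO mice, and Slc20a1 rose from d14 to d21 (log2 fold change 0.94, SE 0.19, edgeR adjusted p = 0.00294) and from d10 to d21 (log2 fold change 1.02, SE 0.19, edgeR adjusted p = 0.000399). It was the 1 gene of the 9 with a higher mean on d21 than on d14.

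Slc20a2 (ENSMUSG00000037656, chr8:22476788-22569612, plus strand) had group means of 64.6 to 75.8 CPM in lean mice. The DIO mice had 43.8, 45.5 and 51.1 CPM on d7, 129, 95 and 85.7 on d10, 163, 140.5 and 143 on d14 and 81.9, 123 and 91.7 on d21. Slc20a2 was thus lowest on d7 and highest on d14, when each DIO mouse was above all other mice of the series. It rose from d7 to d10 (log2 fold change 1.14, SE 0.17, edgeR adjusted p = 0.000227), was higher on d10 than on d3 (log2 fold change 0.62, SE 0.17, edgeR adjusted p = 0.0138) and fell from d14 to d21 (log2 fold change -0.59, SE 0.17, edgeR adjusted p = 0.0204). The d3 to d10 call was lost without DIO d3 mouse 1 (log2 fold change 0.57, edgeR adjusted p = 0.0512), without DIO d10 mouse 1 (0.43, edgeR adjusted p = 0.0736) and with all 30 libraries in 1 fit (0.62, edgeR adjusted p = 0.0819). The fall after d14 was lost without DIO d14 mouse 1 or DIO d21 mouse 1 or 3 (edgeR adjusted p of 0.0576 to 0.102, log2 fold changes of -0.54 to -0.48) and in the fit of all 30 libraries (edgeR adjusted p = 0.0985).

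Both inhibitors rose from d3 to d10 in lean and in DIO callus. Enpp1 (ENSMUSG00000037370, chr10:24637914-24712159, minus strand) was at 66.6, 56.3 and 59.8 CPM in lean mice on d3, 65.0, 78.9 and 93.4 on d5, 91.6, 78.5 and 84.5 on d7 and 226, 104 and 127 on d10. The lean d10 mice were above all other lean mice, and Enpp1 rose from d3 to d10 (log2 fold change 1.36, SE 0.25, edgeR adjusted p = 0.0025). Without lean d10 mouse 1 the log2 fold change was 0.96 (edgeR adjusted p = 0.00262). In the DIO callus Enpp1 was at 59.3, 53.7 and 76.4 CPM on d3 and 114, 89.9 and 113 on d5, a rise that passed (log2 fold change 0.74, SE 0.17, edgeR adjusted p = 0.0288). It was lost without DIO d3 mouse 1 or 2 or DIO d5 mouse 1 or 3 (edgeR adjusted p of 0.108 to 0.175, log2 fold changes of 0.64 to 0.70) and with all 30 libraries in 1 fit (edgeR adjusted p = 0.0805). From d5 on, the DIO means lay between 88.3 and 111 CPM, and on d21 the mice had 92.2, 85.8 and 86.9 CPM. Enpp1 was higher on d10 than on d3 in DIO mice (log2 fold change 0.74, SE 0.17, edgeR adjusted p = 0.00506), and its difference between d21 and d10 did not pass (log2 fold change -0.26, SE 0.17, edgeR adjusted p = 0.226).

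Ank (ENSMUSG00000022265, chr15:27466677-27594909, plus strand) was at 153, 107 and 129 CPM in lean mice on d3, 100.3, 114 and 139.6 on d5, 197, 150.2 and 152 on d7 and 388, 201 and 305 on d10. All lean d10 mice were above all other lean mice, and Ank rose from d3 to d10 (log2 fold change 1.23, SE 0.24, edgeR adjusted p = 0.00341). The DIO mice had 88.9, 119 and 139.6 CPM on d3, 193, 139.9 and 175 on d5, 142, 121 and 161 on d7 and 287, 229.9 and 242 on d10. Ank rose from d7 to d10 (log2 fold change 0.84, SE 0.19, edgeR adjusted p = 0.00568) and from d3 to d10 (log2 fold change 1.13, SE 0.19, edgeR adjusted p = 0.000494). It was at 285, 205 and 263 CPM on d14 and 193, 238 and 216 CPM on d21, values that overlapped d10 (log2 fold change -0.23, SE 0.18, edgeR adjusted p = 0.32).

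In the lean callus, 6 of the 9 genes were higher on d10 than on d3, against 15.2% of the 16471 genes tested, and 0 were lower. These were Alpl, Smpd3, Phex, Fam20c, Enpp1 and Ank, and they were called in each of the fits with 1 lean d3 or d10 mouse left out. The median log2 fold change was 1.36 over the 9 genes and 0.02 over all genes tested. Between d7 and d10 only Fam20c passed in the lean callus, against 1.09% of all genes called higher. That count was 0 without any 1 of the lean d7 mice, 3 (with Ank and Enpp1) without lean d10 mouse 2, 2 (with Enpp1) without lean d10 mouse 3 and 4 (with Ank, Enpp1 and Smpd3) in DESeq2. DESeq2 called 773 of all 25520 genes higher over that span. For the fits with 1 mouse left out, the number of all genes called is not given. With edgeR 0 of the 9 passed between lean d3 and d5 (all genes 0.449%, and 0 of the 9 at an unadjusted p under 0.05) and 0 between d5 and d7 (all genes 0%, and 1 of the 9 at an unadjusted p under 0.05), and DESeq2 called 0 in both. An unadjusted edgeR p under 0.05 was found for 2430 of all 16471 genes between d3 and d5 and for 926 between d5 and d7. Of all 25520 genes, DESeq2 called 596 and 38 over these spans. The same 6 genes passed when all 4 lean days were tested at once for any difference, against 19% of all genes. Alpl and Smpd3 dropped out of that test without lean d3 mouse 1, lean d3 mouse 2 or lean d10 mouse 1, which left 4 genes.

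**Figure D2:**
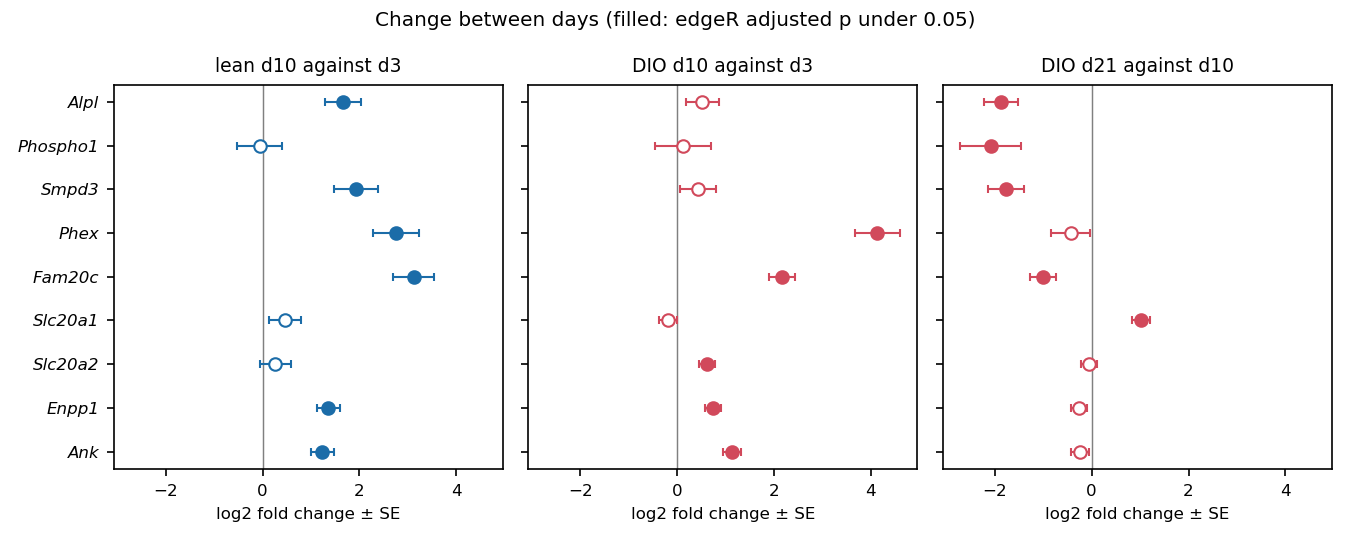
Log2 fold changes (x axis, points, with bars of ± 1 standard error) of the 9 genes (y axis) from d3 to d10 in lean and DIO callus and from d10 to d21 in DIO callus, with filled points at an edgeR adjusted p under 0.05. In all, 6 genes rise in lean callus and 5 in DIO callus from d3 to d10, and from d10 to d21 the points of Alpl, Phospho1, Smpd3 and Fam20c lie below 0 and that of Slc20a1 above it.

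In the DIO callus 5 of the 9 genes were higher on d10 than on d3 (Phex, Fam20c, Ank, Enpp1 and Slc20a2), against 11.1% of the 16995 genes tested, and the medians were 0.62 over the 9 and 0.02 over all genes. Of these, 4 rose between d7 and d10 (Phex, Fam20c, Ank and Slc20a2), against 6.01% of all genes called higher. Between d3 and d5 Phex and Enpp1 passed, against 1.39%, and this count was 0 without DIO d3 mouse 1 or DIO d5 mouse 1 and 1, Phex, without DIO d3 mouse 2 or DIO d5 mouse 3. With edgeR 0 of the 9 passed between d5 and d7 (all genes 0.0177%, and 1 of the 9 at an unadjusted p under 0.05) and 0 between d10 and d14 (all genes 0.759%, and 2 of the 9 at an unadjusted p under 0.05), and DESeq2 called 0 in both. An unadjusted edgeR p under 0.05 was found for 2411 of all 16995 genes between d5 and d7 and for 3006 between d10 and d14. Of all 26537 genes, DESeq2 called 337 and 563 over these spans. From d14 to d21, 3 genes fell, Alpl, Smpd3 and Slc20a2, against 9.03% of all genes, and 1 rose, Slc20a1, against 10.6%. Slc20a1 alone kept its call there without DIO d21 mouse 1 or without DIO d21 mouse 3, and 2 genes kept theirs without DIO d14 mouse 1 (Alpl and Slc20a1) or DIO d14 mouse 3 (Slc20a1 and Slc20a2). From d10 to d21, a span tested after the data were seen, 4 genes fell, Alpl, Phospho1, Smpd3 and Fam20c, against 21.8% of all genes, and Slc20a1 rose, against 21.7%. Over any of the 6 DIO days 8 genes differed, all but Phospho1 (edgeR adjusted p = 0.0803), against 59.1% of all genes.

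Between the diets, 0 of the 9 genes passed with edgeR on any of the 4 shared days. Of all genes, 0% passed on d3 and 0% on d10, while 1.08% passed on d5 and 2.32% on d7. At an unadjusted p under 0.05, the count was 0 of the 9 for d3, 2 for d5, 3 for d7 and 4 for d10, and DESeq2 called 0 on each day. Of all genes, edgeR gave an unadjusted p under 0.05 to 2374 of 15772 on d3 and 2913 of 15722 on d5. For d7 it was 2614 of 15753 genes and for d10 1082 of 15341. On d10 the DIO mice were below the lean mice without overlap for Alpl (log2 difference -0.78, 95% interval -1.50 to -0.07), Smpd3 (-1.19, -2.03 to -0.34), Fam20c (-1.01, -2.02 to -0.0025) and Slc20a1 (-0.92, -1.75 to -0.08), each with an edgeR adjusted p of 0.686. Without lean d10 mouse 1 these differences were -0.37, -0.59, -0.19 and -0.28. The other 5 genes lay between -0.52 (Enpp1) and 0.46 (Slc20a2). Separation of the mice without overlap was looked at for the 9 genes only, on this and the other days. Its share over all genes was not counted, so it is given as a description only.

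On d7 Phex and Slc20a2 were lower in every DIO mouse than in any lean mouse, and Enpp1 was higher, with log2 differences of -0.92 (-1.65 to -0.19), -0.62 (-1.12 to -0.12) and 0.40 (0.01 to 0.79). Their edgeR adjusted p were 0.192, 0.195 and 0.293. Phex passed without DIO d7 mouse 1, which had 95.7 CPM against 39.1 and 37.3 in the others (log2 difference -1.50, edgeR adjusted p = 0.0126). On d5 Ank was higher in every DIO mouse than in any lean mouse, at a log2 difference of 0.52 (0.14 to 0.91, edgeR adjusted p = 0.152). Enpp1 differed by 0.42 (0.05 to 0.78, edgeR adjusted p = 0.218), and its mice overlapped. Without lean d5 mouse 3, 2 genes passed on d5, Alpl and Smpd3, and that mouse had the highest lean d5 level of each. How many of all genes passed in that fit is not given. On d3 the widest difference was that of Phex, -1.20 (-2.49 to 0.09, edgeR adjusted p = 0.362), and Slc20a1 was lower in every DIO mouse (-0.31, -0.63 to 0.01, edgeR adjusted p = 0.34).

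**Figure D3:**
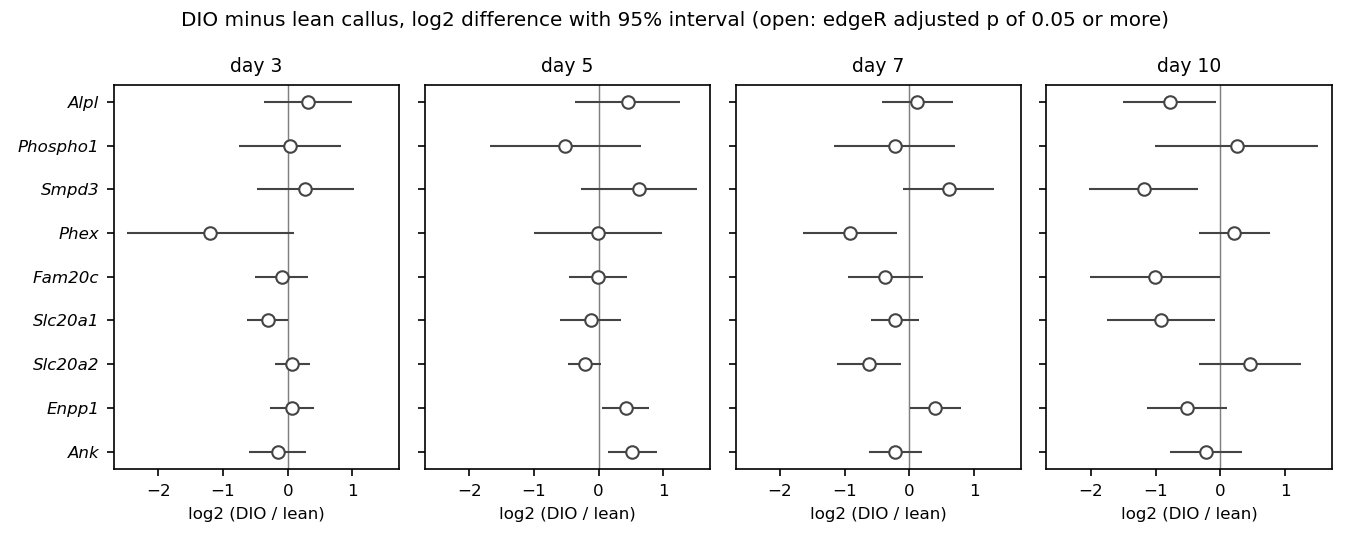
Log2 differences between DIO and lean callus (x axis, below 0 where DIO is lower) with 95% intervals for the 9 genes (y axis) on d3, d5, d7 and d10, in 1 panel per day and 3 mice per diet. All points are open because none passed edgeR's adjusted p of 0.05, and the intervals of Alpl, Smpd3, Fam20c and Slc20a1 lie below 0 on d10.

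Whether the diets differed over time was tested in the 24 libraries of d3 to d10. With edgeR 0 of the 9 genes passed for diet over the time course, against 8.13% of all genes, and 4 had an unadjusted p under 0.05. Of all 17057 genes tested, 4308 had such a p. DESeq2 called 3, Enpp1, Slc20a1 and Smpd3, and 2486 of all 26788 genes. In simulated counts for this test it made 59 false calls and edgeR 9. The smallest edgeR adjusted p was that of Slc20a1, 0.0871. Leaving out lean d10 mouse 2 gave 2 calls (Enpp1 and Slc20a1), lean d10 mouse 3 gave 2 (Slc20a1 and Slc20a2) and lean d5 mouse 3 gave 1 (Smpd3). How many of all genes passed in these fits is not given. For a change of the diet difference from d7 to d10, 0 of the 9 passed with edgeR, against 5.07% of all genes. The nearest were Enpp1 (log2 change of the difference -0.92, edgeR adjusted p = 0.0811), Smpd3 (-1.80, edgeR adjusted p = 0.082) and Slc20a2 (1.08, edgeR adjusted p = 0.0866), the 3 with an unadjusted p under 0.05. Of all 17057 genes, 3952 had such a p. DESeq2 called Enpp1 (adjusted p = 0.0444) and Smpd3 (adjusted p = 0.0257), and 1475 of all 26801 genes. In simulated counts for this change it made 23 false calls and edgeR 7. With edgeR all 3 passed without lean d10 mouse 3 (changes of -1.04, -2.05 and 1.64), and Enpp1 also passed without lean d10 mouse 2 (-1.13) or DIO d7 mouse 3 (-1.04). For these fits, too, the number of all genes passing is not given. A change from d3 to d10, tested after the data were seen, gave 0 of the 9 with edgeR and with DESeq2 against 0.00586% of all genes, and 2 of the 9 at an unadjusted p under 0.05. Of all 17057 genes, 3114 had an unadjusted edgeR p under 0.05, and DESeq2 called 453 of 26801. The changes from d3 to d10 were, for Alpl, -1.12 (-2.14 to -0.09, edgeR adjusted p = 0.232) and, for Smpd3, -1.48 (-2.73 to -0.23, edgeR adjusted p = 0.198), so their rise in lean callus was not shown to differ from the course in DIO callus.

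Promoters were set against inhibitors within each library as the mean log2 CPM of the 7 promoters minus that of Enpp1 and Ank. Transcript lengths enter this difference, so only its changes between groups are read, and it carries no test. In lean mice the d3 mean was -0.33 ± 0.26 (SD, n = 3), followed by -0.26 ± 0.29 on d5, -0.06 ± 0.22 on d7 and -0.20 ± 0.16 on d10. The lean mice of d3 and d10 overlapped in this difference. The DIO means were -0.42 ± 0.32 on d3, -0.64 ± 0.17 on d5, -0.44 ± 0.47 on d7, -0.24 ± 0.11 on d10, -0.48 ± 0.15 on d14 and -0.88 ± 0.17 on d21. From d3 to d10 the difference moved by 0.13 in lean and 0.18 in DIO mice, less than the SD between mice of d3, while from d10 to d21 it moved by -0.63 and the mice did not overlap. Without Phospho1, whose counts are uncertain, the 6 other promoters minus Enpp1 and Ank moved by 0.36 in lean and 0.39 in DIO mice from d3 to d10, above the SD between mice of d3, and by -0.46 from d10 to d21. In lean mice it was then -0.01, 0.35 and 0.50 on d3 and 0.57, 0.72 and 0.64 on d10, with no overlap. In DIO mice it was -0.0975, 0.5403 and 0.0098 on d3 and 0.5027, 0.6313 and 0.503 on d10, and these overlapped. Alpl and Phospho1 minus Enpp1 moved by -0.48, -0.54 and -1.65 over the same spans, so the sign from d3 to d10 depended on which genes were counted. That set holds Phospho1. Alpl minus Enpp1 alone had means of 3.64 on d3 and 3.96 on d10 in lean mice, and of 3.85 and 3.69 in DIO mice.

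Log2 CPM of Alpl minus that of Enpp1 was 3.99, 3.96 and 3.92 in the lean mice of d10 and 3.64 ± 0.25 (SD, n = 3) on d3. In DIO mice it was 3.67, 3.92 and 3.49 on d10, 2.84, 2.80 and 3.56 on d14 and 1.37, 2.61 and 2.05 on d21, and no mouse of d21 overlapped d10. Alpl minus Ank went from 2.27, 2.71 and 2.33 on d10 through 1.47, 1.42 and 2.28 on d14 to 0.31, 1.14 and 0.74 on d21. Relative to both genes that supply pyrophosphate outside the cell, the phosphatase that removes it was lower in every DIO d21 mouse than in any DIO d10 mouse. Summed markers moved over the same days: the chondrocyte markers ran from 1784 to 5809 CPM in DIO mice on d10 and from 87.5 to 716 on d21. The osteoblast markers ran from 77746 to 80152 CPM on d10 and from 32427 to 52914 on d21, and the 4 erythroid markers from 1656 to 4098 and from 20724 to 30415. Ibsp and Bglap were small parts of the osteoblast sum. The DIO means of Ibsp were 6382 CPM on d10 and 1466 on d21. Those of Bglap were 469 and 424, and Bglap was not called between these days. The part of the marker lists in the result was not tested.

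**Figure D4:**
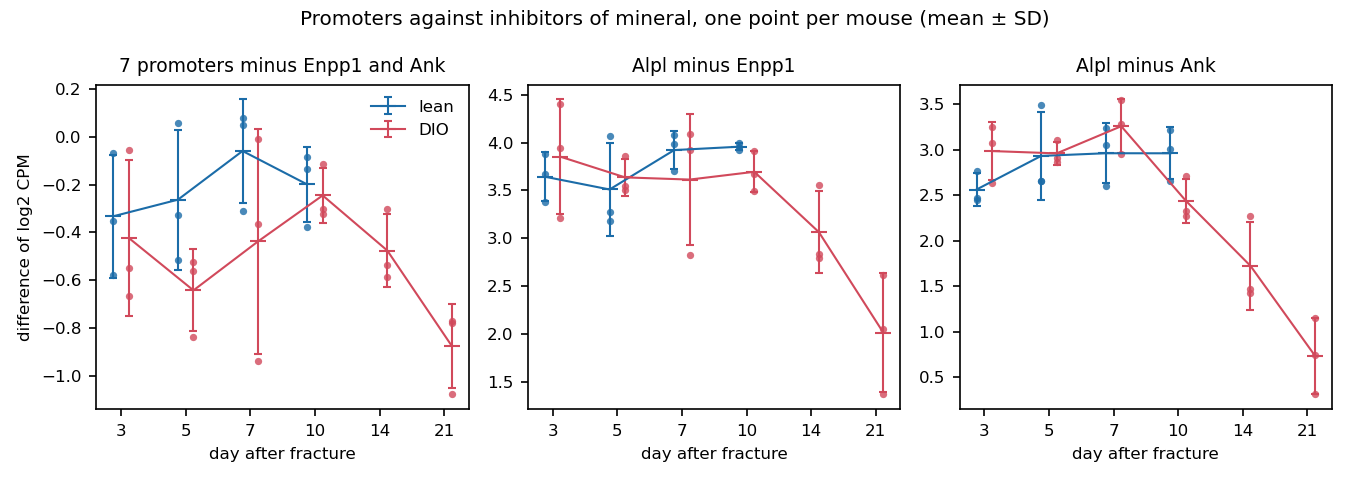
Differences of log2 CPM (y axis) by day after fracture (x axis) for the 7 promoters minus Enpp1 and Ank, for Alpl minus Enpp1 and for Alpl minus Ank, with 1 point per mouse and the mean ± SD of 3 mice in lean and DIO callus. In each panel the DIO d21 mice lie below those of d10, and the y axes differ between panels and do not start at 0.

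Across the 30 libraries, as a description, Alpl and Smpd3 had the closest courses of any 2 of the genes (Pearson r of log2 CPM = 0.96), followed by Fam20c and Ank (0.84) and Ank and Phex (0.79). Phospho1 had its highest values with Alpl (0.63) and Smpd3 (0.59). Enpp1 was closest to Fam20c (0.75) and Ank (0.73), and its values with Phex, Smpd3 and Alpl were 0.58, 0.58 and 0.56. Alpl and Phex had an r of 0.16, and the transporters Slc20a1 and Slc20a2 had -0.13. The libraries share the time course, so every gene that changed with the day contributes to such values. Among all genes with a mean of at least 1 CPM, Gpc1 was closest to Alpl (r = 0.97), Plcd1 to Smpd3 (0.96), Wif1 to Phex (0.97), Gabarapl1 to Fam20c (0.93) and Tsc22d1 to Enpp1 (0.89). For Ank it was Dmp1, a matrix protein gene of osteocytes (0.94), for Slc20a2 Slc9a2 (0.88), for Slc20a1 Kcnn4 (0.80) and for Phospho1 Iffo2 (0.83). Plcd1 was also next closest to Alpl (0.96), and Pth1r, the parathyroid hormone receptor, next closest to Smpd3 (0.94).

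Beside summed cell type markers, Alpl and Smpd3 went with the chondrocyte list (r = 0.83 and 0.84) and the osteoblast list (0.80 and 0.75). Phex and Ank went with the osteocyte list, Dmp1, Sost, Mepe, Fgf23 and Dkk1 (0.91 and 0.92), and with the osteoclast list (0.92 and 0.87), and Enpp1 with Col10a1, Ihh and Mmp13 of hypertrophic chondrocytes (0.85). Fam20c had 0.80, 0.81 and 0.83 with the osteocyte, osteoclast and hypertrophic lists. The osteocyte sum rests mainly on Dmp1, also the gene closest to Ank, and Mepe. In lean d10 mice their means were 1457 and 372 CPM, and that of Fgf23 was 0.0224. Ibsp and Bglap, with lean d10 means of 8491 and 395 CPM, were small parts of the osteoblast sum. In lean mice the osteocyte list summed to 300.3, 370.2 and 649 CPM on d3 and to 2259, 1297 and 2397 CPM on d10, and in DIO mice to 189.9, 322 and 361 and 2551, 1812 and 1607 CPM. The chondrocyte list summed to 520.1, 493 and 439 CPM in lean mice on d3 and to 64085, 12851 and 10328 CPM on d10. In DIO mice it was highest on d7, at 30753, 15394 and 37249.9 CPM, the day of the highest mean of Smpd3. Slc20a1 had its lowest r with the skeletal muscle list (-0.67), and lean d10 mouse 1, with the lowest lean muscle sum, had the highest Slc20a1. The part of these lists in the courses of the 9 genes was not tested.

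**Figure D5:**
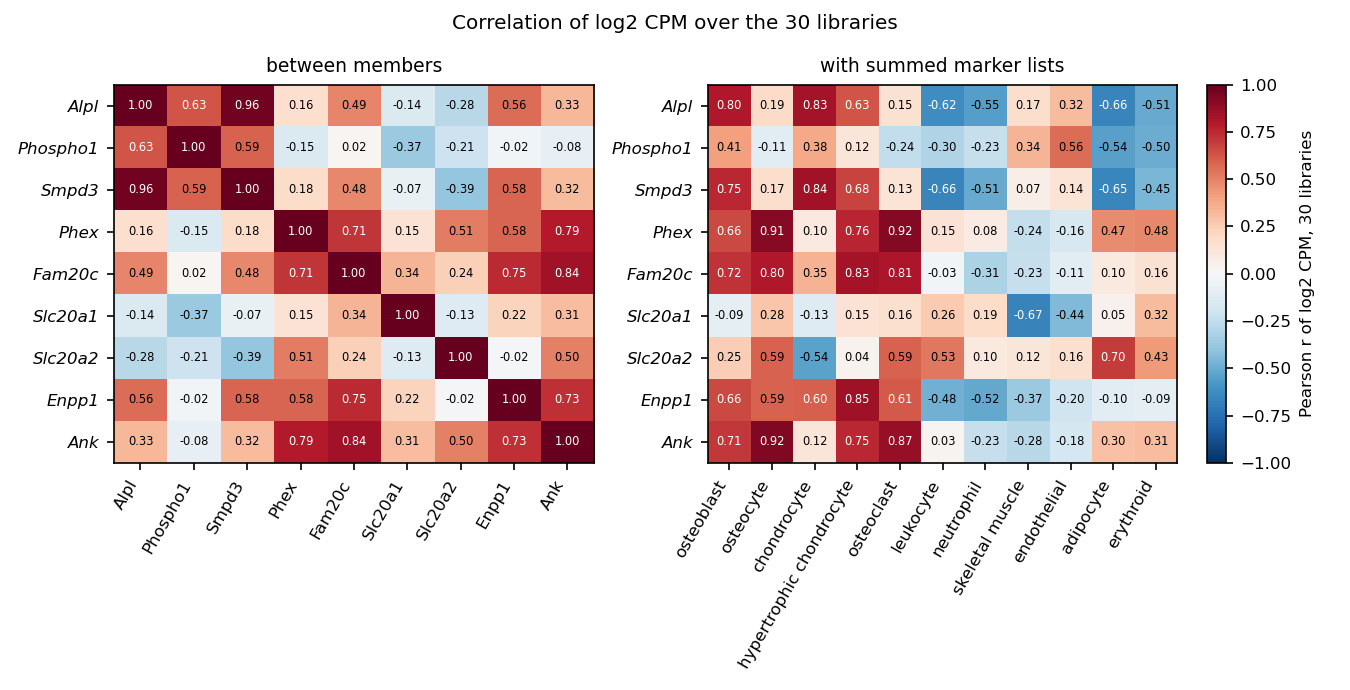
Pearson r of log2 CPM over the 30 libraries (colour and printed value, from -1 to 1) between the 9 genes (left) and between each gene (rows) and the log2 summed CPM of 11 marker lists (right). Alpl and Smpd3 share the dark cell of 0.96, and the osteocyte and osteoclast columns are darkest for Phex and Ank.

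The other genes of the pathway were taken from a list of 38 chosen by function, of which 29 passed the filter on low counts in the fits of lean days. From d3 to d10 in the lean callus 20 were higher and 2 lower, against 15.2% of all genes called higher and 14.1% called lower. Those with the smallest p included Spp1, which encodes the phosphoprotein osteopontin, with a log2 fold change of 2.46 (SE 0.26, edgeR adjusted p = 0.000155). Fam20a, the pseudokinase partner of Fam20c, had a log2 fold change of 1.20 (SE 0.16, edgeR adjusted p = 0.000558), and Vdr, the vitamin D receptor, had 2.09 (SE 0.29, edgeR adjusted p = 0.00064). Ucma, which encodes a cartilage matrix protein, had a mean of 0.268 CPM on d3 and 78.1 CPM on d10. Lean d10 mouse 1 is part of these d10 values, and fits without it are not given for the pathway genes. The 2 lower genes, named after their values were seen, were the nucleotide-splitting Entpd5 (-0.67) and Entpd1 (-0.58). All 4 tested kinase and peptidase substrates were among the higher genes. So were all 4 tested genes of the list around inhibitors in matrix and serum, which are Mgp, Bglap and Ucma and also Vkorc1, an enzyme that recycles vitamin K and is itself no inhibitor of mineral. Between lean d7 and d10 only Spp1 passed, at 1.43 (SE 0.25, edgeR adjusted p = 0.0225), and between d3, d5 and d7 0 of the 29 passed with edgeR.

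In the DIO callus 9 of the 29 were higher on d10 than on d3 and 0 lower, against 11.1% of all genes called higher and 10.8% called lower, led by Bglap (log2 fold change 5.44, SE 0.37, edgeR adjusted p = 1.83e-07), which encodes osteocalcin and shares near-identical sequence with Bglap2 and Bglap3. Mepe, a phosphoglycoprotein of bone matrix, rose by a log2 fold change of 3.46 (SE 0.26, edgeR adjusted p = 2.39e-07), and Xpr1, the phosphate exporter, by 1.47 (SE 0.17, edgeR adjusted p = 1.56e-05). From d10 to d21, 12 of the 29 fell and 2 rose, against 21.8% and 21.7% of all genes. Of the 6 vesicle and phosphocholine genes 4 fell and 1 rose. Panx3, a channel of osteoblasts and chondrocytes, fell by 3.45 on the log2 scale (SE 0.47, edgeR adjusted p = 3.98e-05), Mgp, the matrix Gla protein that inhibits mineral, fell by 2.51 (SE 0.27, edgeR adjusted p = 6.29e-06), and the vesicle annexins Anxa5 and Anxa6 fell by 1.10 and 1.18.

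Between consecutive DIO days 4 of the 29 were higher from d3 to d5 (all genes 1.39%) and 0 passed from d5 to d7 (all genes 0.0177%). From d7 to d10, 7 were higher (all genes 6.01%) and 4 lower (all genes 7.01%). From d10 to d14 Mgp alone was lower (log2 fold change -1.38, SE 0.26, edgeR adjusted p = 0.0307), as were 0.177% of all genes, and from d14 to d21 1 was higher (all genes 10.6%) and 8 lower (all genes 9.03%). Between the diets the calls were 0 of 28 for d3 (all genes 0%), 1 of 29 for d5 (1.08%), 5 for d7 (2.32%) and 0 for d10 (0%). On d5 it was Ppa1, a cytosolic pyrophosphatase, with a log2 difference of 0.89 (SE 0.15, edgeR adjusted p = 0.0458). On d7 Bglap was lower in DIO mice (log2 fold change -2.64, SE 0.39, edgeR adjusted p = 0.0156), and Mgp (log2 fold change 0.96, SE 0.18, edgeR adjusted p = 0.0301) and Nt5e, the ectonucleotidase downstream of Enpp1 (log2 fold change 1.23, SE 0.25, edgeR adjusted p = 0.0381), were higher. Ucma was also higher in DIO mice on d7, with a mean of 214 CPM against 9.58 in lean mice, and on d10 its means were 5.27 and 78.1 CPM. The lean d10 group includes mouse 1, whose chondrocyte markers summed to 64085 CPM against 12851 and 10328 in the others. Fits without that mouse are not given for the pathway genes, here or for the changes from d7 to d10. From d7 to d10 the diet difference changed for 8 of the 29, against 5.07% of all genes, among them Ucma, Mgp (a log2 change of -2.42), Nt5e (-2.65) and Xpr1 (1.01). None of the 9 mineralization genes passed that test with edgeR.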

How the data were processed

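RNA-seq libraries from a stranded kit were aligned by the authors to GRCm38 with HISAT2 2.1.0 and counted per gene with HTSeq, per the submitters' processing notes and the study's methods. The HTSeq version, its strand setting and the annotation are not given in the sources used here. The deposited values are raw counts of 43629 genes in 30 libraries (13247122 to 26365620 counts, median 16854427), so no value was normalised before deposit. Of the gene identifiers, 42462 matched GENCODE M21, which gave coordinates and exon lengths. All 30 pairs of mice within a group differed by more than sampling noise (chi-square per degree of freedom 12.8 to 148).

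Counts were scaled with TMM, filtered with filterByExpr and tested with the quasi-likelihood F-test of edgeR 4.0.16 (R 4.3.3) across all genes, with Benjamini-Hochberg adjustment at 0.05. Lean days were fitted in 12 libraries, DIO days in 18, diet on each day in 6 and diet over d3 to d10 in 24 (a polynomial of degree 2 in day, and separate days for changes of the diet difference). A standard error is the log2 fold change divided by the root of F. The log2 CPM behind correlations and gene differences used a prior count of 2. In simulated counts edgeR found 36 of 100 genes changed 2-fold and 77 of 100 changed 4-fold for lean d10 against d3 (16471 genes, 4 false calls), and 28 and 85 of 100 for diet on d10 (15341 genes, 12 false calls). In the same counts DESeq2 found 61 and 85 of 100 (40 false calls), and 49 and 88 of 100 (58 false calls). The counts were also run with upper-quartile and RLE factors, with DESeq2 1.42.0, without the filter on low counts, with a replicate block, with all 30 libraries in 1 fit and with each mouse left out, and the gene difference with another prior count, without TMM factors and with other sets of genes. The comparison of DIO d21 with d10, the change of the diet difference from d3 to d10 and the leaving out of Phospho1 from the gene difference and of lean d10 mouse 1 from the ratio of group means were added after seeing the data. The 9 genes were named throughout, and of the other pathway genes at most 4 per comparison, taken from those with the smallest adjusted p, except that Entpd5, Entpd1 and Vkorc1 were named after their values were seen. The genes, lists and motifs were chosen with earlier results of these data known. Intervals are 95% intervals of the edgeR fit. Its p-values set each difference against the spread between these mice, which was estimated with information from all genes.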

Additional observations from a re-analysis of the deposited data

How the results depend on the processing

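Log2 fold changes of single genes were compared between settings for called genes and for some uncalled genes given above. Of 312 such values recomputed under another setting, 307 kept their direction and their side of the threshold, 3 lost a call, 2 gained one and 0 changed sign. With 1 mouse left out it was 313 of 342, with 23 calls lost, 6 gained and 0 changes of sign. Calls gained by other genes are not counted, such as Alpl and Smpd3 for diet on d5 and those for lean d10 against d7. For lean d10 against d7, where 1 of the 9 genes was called, DESeq2 called 4, and the fit with a replicate block and the fit of all 30 libraries called 3 each. Of all genes these called 1773 of 25520, 1479 of 16471 and 1529 of 17357. The replicate block changed no other count of the 9 genes by over 1.5 times, but it moved the number of all genes called from 74 to 199 for lean d5 against d3, from 450 to 1479 for lean d10 against d7, from 129 to 45 for DIO d14 against d10, from 0 to 325 for diet on d3, from 170 to 0 for diet on d5 and from 1 to 2 for the change of the diet difference from d3 to d10. The shares of all genes depend on the tool as well: DESeq2 called 753 genes for diet on d3 (edgeR 0), 1116 for d5 (edgeR 170), 922 for d7 (edgeR 366) and 56 for d10 (edgeR 0). The numbers follow the order of deposition, and no label pairs mice by them. Mice of different groups that share a number had deviations with a mean r of 0.15 among lean and -0.02 among DIO libraries. For mice with different numbers it was -0.08 and 0.01. Whether a shared number stands for more than the order was not tested. For DIO d5 against d3 the count was 1 of 9 in the fit of all 30 libraries. DESeq2 called 3 genes for diet over the time course and 2 for the change of the diet difference from d7 to d10. Of all genes it called 2486 of 26788 and 1475 of 26801. With only Alpl and Phospho1, whose counts are uncertain, minus Enpp1, the balance of promoters and inhibitors moved by -0.48 in lean and -0.54 in DIO mice from d3 to d10, and by -1.65 from d10 to d21. The cause of these shifts was not tested. With each mouse left out in turn, the counts ran from 0 to 3 for lean d10 against d7, 4 to 6 for any lean day, 0 to 2 for DIO d5 against d3, 1 to 4 for DIO d21 against d14, 4 to 5 for DIO d10 against d3 and for d21 against d10, 8 to 9 for any DIO day, 0 to 2 for diet on d5, 0 to 1 for diet on d7, 0 to 2 for diet over the time course and 0 to 3 for the change from d7 to d10. The others did not move. The number of all genes called with 1 mouse left out is not given, so these counts have no share beside them. The balance ran from 0.01 to 0.27 (lean, d3 to d10), 0.06 to 0.36 (DIO, d3 to d10) and -0.68 to -0.53 (DIO, d10 to d21). In simulated counts with 3 mice per group edgeR found 20 of 100 genes whose diet difference changed 2-fold from d7 to d10 and 74 of 100 that changed 4-fold, and 85 and 99 of 100 for diet over the time course. DESeq2 found 33 and 80 of 100, and 89 and 100 of 100. False calls were 7 and 9 with edgeR and 23 and 59 with DESeq2. For the time course each simulated gene differed by the same fold on every day. It does not show how often a diet difference that varies with the day is found.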
